A study of Mus musculus with 2 samples.

Results

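The genes described here are the ligands and receptors of the TAM family together with a pair of growth-arrest-specific genes: Gas6, Pros1, Axl, Tyro3, Mertk, Gas1 and Gas2. They were chosen by symbol, as all probe sets that the platform annotation gives to these 7 genes alone, which were 13 of 45101 probe sets and 7 of 18194 named genes. Messenger RNA was measured in NIH3T3 cells, a line of immortalised fibroblasts from mouse embryos. One culture was infected with a retrovirus carrying an shRNA to CCR4b (CCR4b RNAi) and another with a control shRNA retrovirus (control RNAi). Both cultures were grown in DMEM with fetal bovine serum. CCR4b, also named CNOT6L, is a deadenylase: within CCR4-NOT it removes the poly(A) tails of mRNAs. Each culture was read on 1 Affymetrix mouse array, so there is no replicate error and the cultures could not be compared by a test. Neither the number of hairpins nor the time after infection is given in the sources used here. The members were picked with their ratios in this same contrast already known, so their values are a description of this pair of arrays.

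GAS6 and protein S, the product of Pros1, are secreted vitamin K-dependent proteins. They bind phosphatidylserine on dying cells or membranes with one end and a TAM receptor kinase (TYRO3, AXL or MERTK) with the other. GAS6 binds all of these receptors, whereas protein S acts through TYRO3 and MERTK. Their signalling drives survival through PI3 kinase and AKT, uptake of apoptotic cells, and the damping of inflammatory responses. The growth-arrest-specific genes were first cloned from NIH3T3 fibroblasts as transcripts that accumulate when cells stop dividing after serum withdrawal or at confluence, and Gas6 was one of them.

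Signals are in arbitrary units on a linear scale, as deposited. A floor was set at the 50th percentile of all values, 8.07 units, since no detection calls were at hand. A ratio is the log2 of CCR4b RNAi over control RNAi, and a probe set under the floor on 1 array gives only a bound, written "at least". Each gene is represented by its brightest probe set. Of the 18194 named genes, 11915 reached the floor on at least 1 array, and their median log2 ratio was -0.07 with a robust SD of 0.49 across genes. The median signal over all probe sets was 8.34 units on the CCR4b RNAi array and 7.81 on the control RNAi array. For 4550 genes with several probe sets over the floor in both cultures, the log2 ratios of the brightest pair of probe sets differed by a robust SD of 0.42. Cnot6l, the targeted gene, read 43.0 units after CCR4b RNAi and 102 units in the control, a log2 ratio of -1.25. Cnot6, another CCR4-type deadenylase gene, was lower too, at 138 units after CCR4b RNAi and 222 in the control (log2 ratio -0.69). Its dimmer probe sets had log2 ratios of -1.03, -0.80 and -0.85. The part of the Cnot6 difference in the members' values was not tested. The 3' over 5' signal ratio, a measure of RNA integrity, was 1.46 after CCR4b RNAi and 1.35 in the control for Actb. For Gapdh it was 0.819 after CCR4b RNAi and 0.824 in the control, for Pcx 2.88 after CCR4b RNAi and 3.34 in the control, and for 18S ribosomal RNA 0.346 after CCR4b RNAi and 0.188 in the control. The part of these differences in the members' values was not tested. The log2 ratios of Actb and Gapdh were -0.11 and -0.07.

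All 7 genes reached the floor on both arrays on their brightest probe set. At least a 1.5-fold higher signal after CCR4b RNAi was seen for 4 of them (Gas6, Mertk, Gas2 and Pros1), against 11.3% of all measured genes, and 1 (Axl) was at least 1.5-fold lower, against 14.6%. At 2-fold, 3 were higher (3.74% of all measured genes) and 1 was lower (4.48%). Nothing is read from these shares, because the ratios guided the choice of genes. The median log2 ratio of the 7 genes was 0.75. Of the 13 probe sets, 8 passed the floor in both cultures, 2 in 1 culture and 3 in neither.

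**Figure D1:**
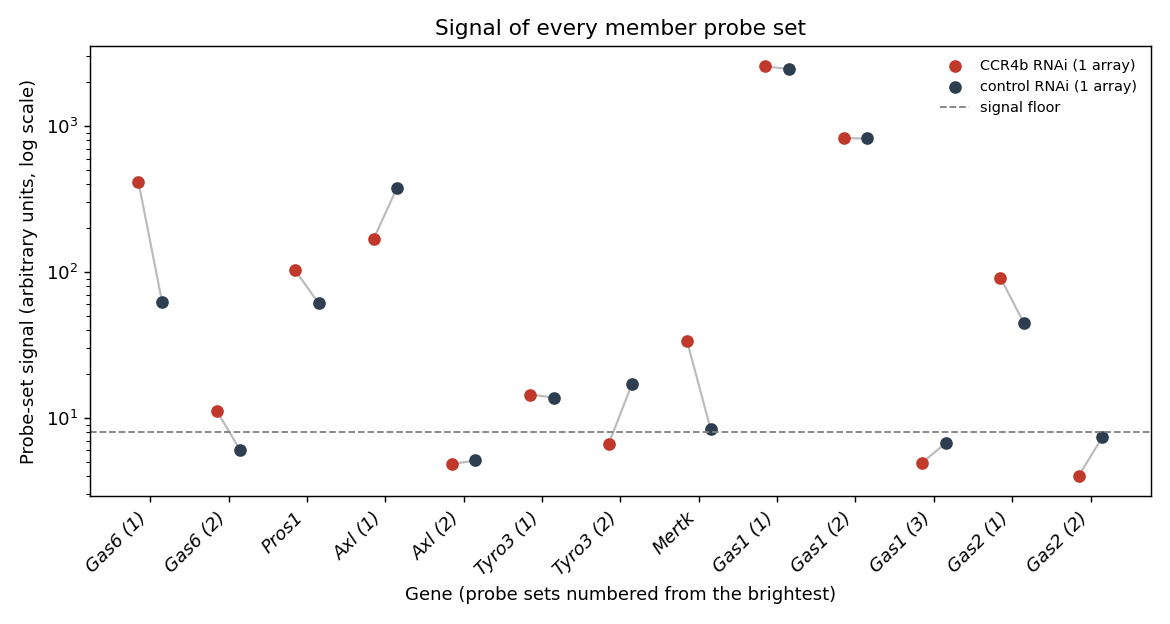
Signal of all 13 probe sets of the 7 genes on a log axis in arbitrary units, with the CCR4b RNAi array (red) left of the control RNAi array (dark) for each probe set and the floor of 8.07 units as a dashed line. The brightest Gas6 probe set reads 413 units after CCR4b RNAi and 62.7 in the control, Axl the opposite way at 169 and 378 units, and the bright Gas1 probe sets are level.

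Of the ligands, Gas6 had the widest difference among the 7 genes. Its brightest probe set read 413 units after CCR4b RNAi and 62.7 units in the control, 6.59-fold higher (log2 ratio 2.72). This was rank 6 from the top of the 11915 measured genes and the highest ratio of the 1191 genes in its class of mean signal, a class with a median of -0.16 and a robust SD of 0.41. The second Gas6 probe set was dim, with 11.2 units after CCR4b RNAi and 6.00 units in the control, below the floor. It gives a bound of at least 1.38-fold higher, so the direction was shared but the size rests on 1 probe set. When the median over the probe sets stood for the gene, the Gas6 log2 ratio was 1.59 (3.02-fold).

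Pros1, which encodes protein S, was also higher, by less. Its only probe set read 103 units after CCR4b RNAi and 61.0 units in the control, 1.68-fold higher (log2 ratio 0.75). That lay at percentile 96.6 of the genes in its signal class, whose robust SD was 0.43.

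The receptors went in opposite directions. Axl, the receptor with the highest known affinity for GAS6, read 169 units after CCR4b RNAi and 378 units in the control on its brightest probe set. It was 2.24-fold lower (log2 ratio -1.16), at percentile 2.69 of its signal class. The second Axl probe set, of a type open to cross-hybridisation, stayed below the floor on both arrays at 4.84 units after CCR4b RNAi and 5.12 in the control. Mertk, the receptor best known for the clearance of apoptotic cells by macrophages and retinal pigment epithelium, read 33.8 units after CCR4b RNAi and 8.47 units in the control. It was 3.99-fold higher (log2 ratio 2.00), rank 34 from the top and at percentile 98.9 of its signal class. The control reading stood just above the floor and there is no second Mertk probe set, so the size of this ratio depends on a signal near background.

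Tyro3, the receptor most associated with the nervous system, was dim and its probe sets disagreed. The brighter one read 14.5 units after CCR4b RNAi and 13.8 in the control, a log2 ratio of 0.07. The other fell below the floor after CCR4b RNAi at 6.65 units, against 17.2 units in the control, at least 2.13-fold lower. Both are of the type designed to read several transcripts of the same gene. The small positive ratio of the brighter probe set turned negative, between -0.03 and -0.02, under each of the 3 scaling alternatives. No direction can be given for Tyro3.

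**Figure D2:**
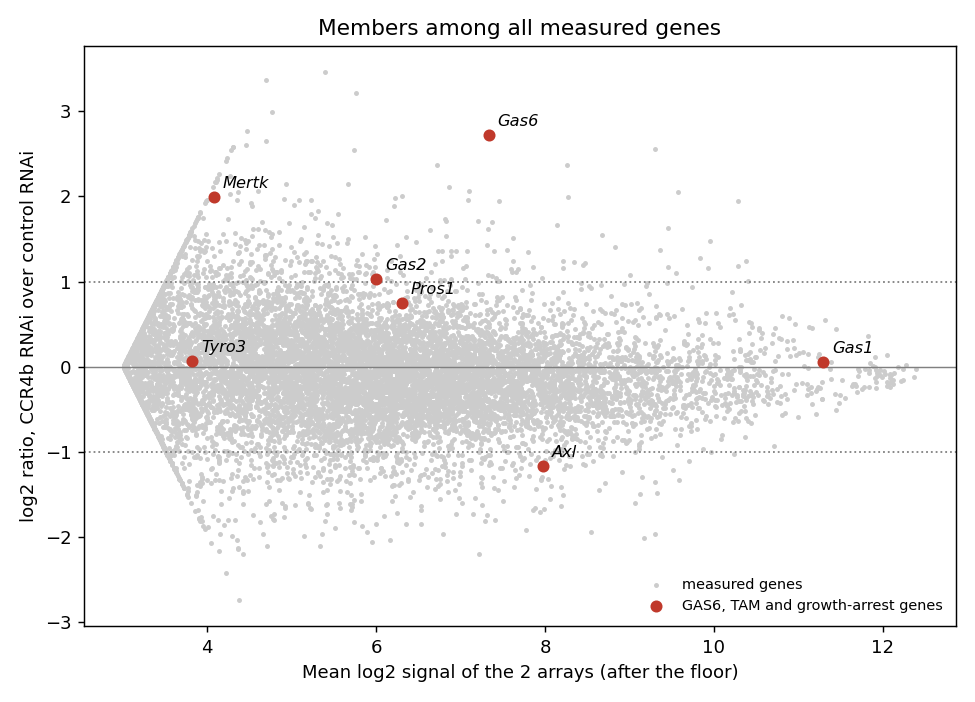
Log2 ratio of CCR4b RNAi over control RNAi against the mean log2 signal of the 2 arrays after the floor, for the 11915 measured genes (grey) and the 7 members (red), with dotted lines at 2-fold. Gas6 lies above all genes of similar signal at 2.72, Mertk lies near the dim edge at 2.00, Axl is at -1.16, and Gas1 and Tyro3 lie near 0.

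The stretches around the start sites of the 3 TAM genes that differed by more than 2-fold are shown because Gas6 and Mertk were higher together while Axl was lower. Each is the RefSeq window from 250 bases before to 50 bases after the annotated start on GRCm38.p6, 5′ to 3′ on the gene's strand. Capitals mark GGGCGG, the core letters of the GC box, or its reverse complement, with no overlaps among the matches.
Gas6, chr8:13494486-13494785, minus strand: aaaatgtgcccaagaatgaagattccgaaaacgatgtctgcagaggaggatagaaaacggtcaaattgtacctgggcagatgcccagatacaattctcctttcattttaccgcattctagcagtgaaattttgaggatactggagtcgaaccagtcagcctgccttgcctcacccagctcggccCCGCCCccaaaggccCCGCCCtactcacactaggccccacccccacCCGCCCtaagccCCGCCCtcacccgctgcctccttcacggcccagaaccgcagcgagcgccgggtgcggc
Mertk, chr2:128698665-128698964, plus strand: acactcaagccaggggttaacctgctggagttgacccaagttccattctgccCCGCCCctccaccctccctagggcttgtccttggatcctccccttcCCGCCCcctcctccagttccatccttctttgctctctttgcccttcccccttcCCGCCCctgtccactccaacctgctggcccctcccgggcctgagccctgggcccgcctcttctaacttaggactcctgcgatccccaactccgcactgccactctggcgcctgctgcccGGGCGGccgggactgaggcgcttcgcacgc
Axl, chr7:25788684-25788983, minus strand: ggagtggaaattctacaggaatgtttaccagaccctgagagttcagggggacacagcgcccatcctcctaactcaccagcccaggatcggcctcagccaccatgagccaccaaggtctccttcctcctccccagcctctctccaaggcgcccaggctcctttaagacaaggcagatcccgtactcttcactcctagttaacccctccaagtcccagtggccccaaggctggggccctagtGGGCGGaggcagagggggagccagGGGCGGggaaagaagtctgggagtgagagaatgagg

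The Gas6 and Mertk windows held 4 GC box matches each and the Axl window held 2. Over all 32851 RefSeq windows of this length, 35.7% held at least 1 match, 19.5% at least 2 and 5.49% at least 4. The windows were richer in G and C than most, and the part of this in the counts was not tested. G and C made up 58.3% of the Gas6 window, 66% of the Mertk window and 60.3% of the Axl window, against a median of 52.7% over all windows. Genes that were level or had no clear direction held the letters too, with 6 matches at Tyro3 and 1 at Gas1. Pros1 had 5 matches, and the 2 windows of Gas2 had 1 and 0. TGACTCA, the AP-1 letters, was searched on both strands and had 0 matches at any of the 7 genes, as did the E-box CACGTG and the TATA box letters TATAAA. They occur in 5.2%, 7.15% and 13.6% of all windows. GGAATG, the TEAD letters, had 1 match, in the Axl window (14.7% of all windows). CCAAT had 1 match at Gas1 and 1 in a Gas2 window (37.4% of all windows). A match is a run of letters, and these data hold no measurement of binding at it.

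Gas1 and Gas2 differed from each other. Gas1 encodes a membrane-anchored protein that blocks entry into S phase when overexpressed in fibroblasts and also acts as a Hedgehog co-receptor. It was level: its brightest probe set read 2566 units after CCR4b RNAi and 2460.4 units in the control (log2 ratio 0.06). The next probe set read 826 units after CCR4b RNAi and 823 in the control, a log2 ratio of 0.0047. The third Gas1 probe set stayed below the floor. The Gas1 class of the brightest genes had a median of -0.17 and a robust SD of 0.36, and Gas1 lay at percentile 74.1 in it. Scaling by array medians gave Gas1 a ratio of -0.03. Gas2, a protein of the actin and microtubule cytoskeleton and a substrate of caspases, read 91.4 units after CCR4b RNAi and 44.7 in the control. It was 2.05-fold higher (log2 ratio 1.03), at percentile 97.1 of its class, whose robust SD was 0.50. Its second probe set was below the floor on both arrays at 4.04 units after CCR4b RNAi and 7.37 in the control.

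**Figure D3:**
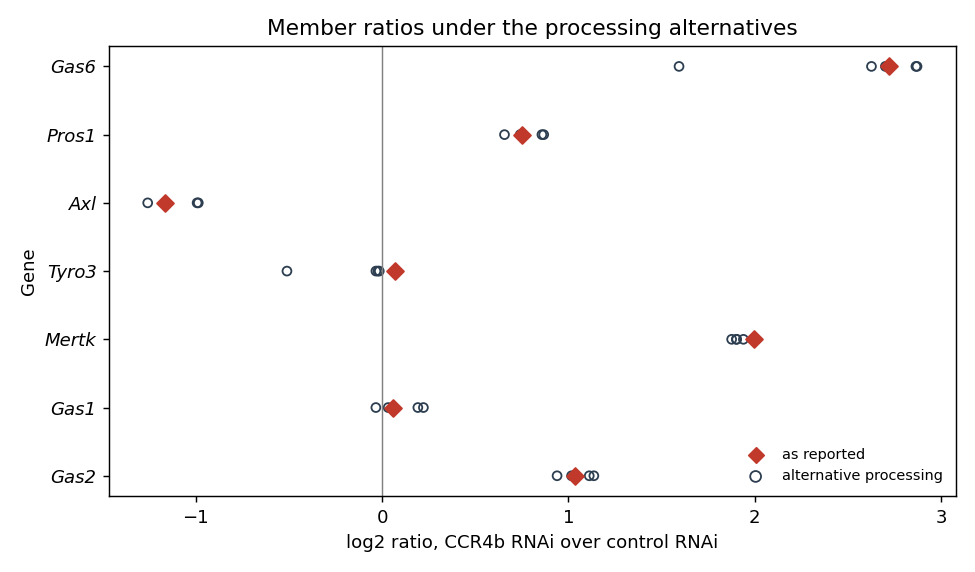
Log2 ratio of CCR4b RNAi over control RNAi for each of the 7 genes as reported (red diamonds) and under the processing alternatives (open circles). Gas6, Pros1, Mertk, Gas2 and Axl keep their sides of 0, Gas6 drops to 1.59 with the median over its probe sets, and Tyro3 and Gas1 have values on both sides of 0.

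Genes with growth-arrest-specific names went both ways. Of 10 such genes including Gas1, Gas2 and Gas6, 9 were measured, and their median log2 ratio was -0.34, against -0.07 over all measured genes. With the median over each gene's probe sets it was -0.02, against -0.05 over all measured genes. By count, 2 were at least 1.5-fold higher (11.3% of all measured genes), namely Gas6 and Gas2, and 2 were as much lower (14.6%). Nothing is read from the higher count, because Gas6 and Gas2 were chosen with their ratios known. Gas8, a subunit of the dynein regulatory complex of cilia, read 25.7 units after CCR4b RNAi and 50.4 in the control (1.96-fold lower). Gas2l3, a relative of Gas2 that links actin and microtubules and acts in cytokinesis, read 46.8 units after CCR4b RNAi and 84.0 in the control (1.80-fold lower). Its other probe sets had log2 ratios of -0.45 and -0.68. Pmp22, first cloned as Gas3 and known as a myelin protein, read 867 units after CCR4b RNAi and 582 in the control, 1.49-fold higher. Gas5, a non-coding host transcript of small nucleolar RNAs, read 1950 units after CCR4b RNAi and 2461 in the control (log2 ratio -0.34). The 4 Gas5 probe sets had log2 ratios of -0.34, -0.36, 0.12 and -0.14. Gas7 and Gas2l1, which encode cytoskeletal proteins, had log2 ratios of -0.39 and -0.46, with Gas7 between -0.22 and 0.47 on its dimmer probe sets.

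Of 26 measured further ligands, sheddases and adaptors, 1 passed 1.5-fold upward (11.3% of all measured genes) and 3 downward (14.6%), so the lower share was near the background. Their median log2 ratio of -0.02 changed sign among the alternatives. None passed 2-fold either way (3.74% of all measured genes were higher and 4.48% lower), though the Vav2 and Vav3 values below are bounds. Adam10 and Adam17, proteases that release the outer domains of AXL and MERTK, had log2 ratios of 0.08 and 0.15. Lgals3, which encodes galectin-3, a further MERTK ligand, read 2202 units after CCR4b RNAi and 2234 in the control (log2 ratio -0.02). Pik3r1, a PI3 kinase subunit, had 0.27, and Akt1 had -0.13 on its brightest probe set but 0.68 (1.60-fold higher) and 0.18 on dimmer ones. Socs3, an inhibitor of cytokine signalling that TAM receptors induce in immune cells, was 1.52-fold higher at 184 units after CCR4b RNAi and 121 in the control. Its other probe sets had log2 ratios of -0.09 and 0.77. Those lower were dim: Elmo1, an engulfment adaptor, was 1.56-fold lower from 15.5 units in the control, and the exchange factors Vav2 and Vav3 were at least 1.66-fold and 1.76-fold lower.

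GAS6 and protein S need gamma-carboxylation of their glutamate residues in the secretory pathway. Ggcx, the carboxylase, read 35.0 units after CCR4b RNAi and 26.1 in the control (log2 ratio 0.42). Its dimmer probe set went the other way, at 8.75 units after CCR4b RNAi and 18.4 in the control (2.10-fold lower). Vkorc1, the reductase that recycles vitamin K, had a log2 ratio of -0.04. With other Gla proteins, 10 genes of this group were measured, 2 passed 1.5-fold upward (11.3% of all measured genes did) and 0 downward (14.6%). The median log2 ratio was 0.40, but 0.07 with the median over each gene's probe sets, where all measured genes had -0.05. The higher pair was Prrg1, a transmembrane Gla protein (86.3 units after CCR4b RNAi and 40.3 in the control, 2.14-fold higher), and F2, prothrombin (16.6 units after CCR4b RNAi and 8.44 in the control). A dimmer Prrg1 probe set went the other way, at 1.45 units after CCR4b RNAi and 14.2 in the control.

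GAS1 works with CDON and BOC as co-receptors of Hedgehog ligands. While Gas1 was level, Cdon read 201 units after CCR4b RNAi and 88.4 in the control, 2.28-fold higher (log2 ratio 1.19). Ptch1, the Hedgehog receptor and itself a target of the pathway, read 58.1 units after CCR4b RNAi and 24.7 in the control, 2.35-fold higher. Both Cdon and Ptch1 rest on 1 probe set each, as their other probe sets were below the floor. Boc had a log2 ratio of 0.19 on its brighter probe set and 0.89 on the dimmer. Smo, the signal transducer, had -0.13 on its brighter probe set and -0.51 on the other, and Sufu, an inhibitor of the pathway, had -0.49 and -0.71. Gli2 and Gli3, its transcription factors, had 0.52 and 0.51, with -0.34 on the dimmer Gli2 probe set. Gli1 and Hhip, further targets, stayed below the floor. Of 7 measured genes, 2 passed 1.5-fold upward (11.3% of all measured genes) and 0 downward (14.6%). The median was 0.51, and 0.19 with the floor at the 25th percentile, at which more genes count as measured.

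Among 23 other measured receptor tyrosine kinases, 5 passed 1.5-fold upward (11.3% of all measured genes) and 2 downward (14.6%). Their median log2 ratio was 0.13 and ranged from 0.04 to 0.37 among the alternatives. At 2-fold, 1 was higher (3.74% of all measured genes) and 1 lower (4.48%), so these shares were near the background. Ddr2, a collagen receptor, read 247 units after CCR4b RNAi and 123 in the control, 2.00-fold higher, and 1.95-fold higher on its second probe set. Epha2, an ephrin receptor, read 15.7 units after CCR4b RNAi and 33.5 in the control, 2.14-fold lower. Epha4 was 1.71-fold higher on a dim probe set that its other probe sets did not follow, and Fgfr2 was 1.65-fold higher. Ntrk2 was 1.58-fold lower on a dim probe set, at 10.0 units after CCR4b RNAi and 15.8 in the control. The other Ntrk2 probe sets were below the floor on both arrays. Pdgfra and Pdgfrb, the platelet-derived growth factor receptors of fibroblasts, had log2 ratios of 0.45 and 0.37 on their brightest probe sets. Dimmer probe sets had 0.68 and 0.64 for Pdgfra and 0.55 for Pdgfrb. On brightest probe sets, the Axl log2 ratio of -1.16 was below, and the Mertk log2 ratio of 2.00 above, all 23 of these kinases. This comparison has no test behind it, and nothing is read from it, because the ratios guided the choice of Axl and Mertk. The Mertk control signal also stood near the floor.

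**Figure D4:**
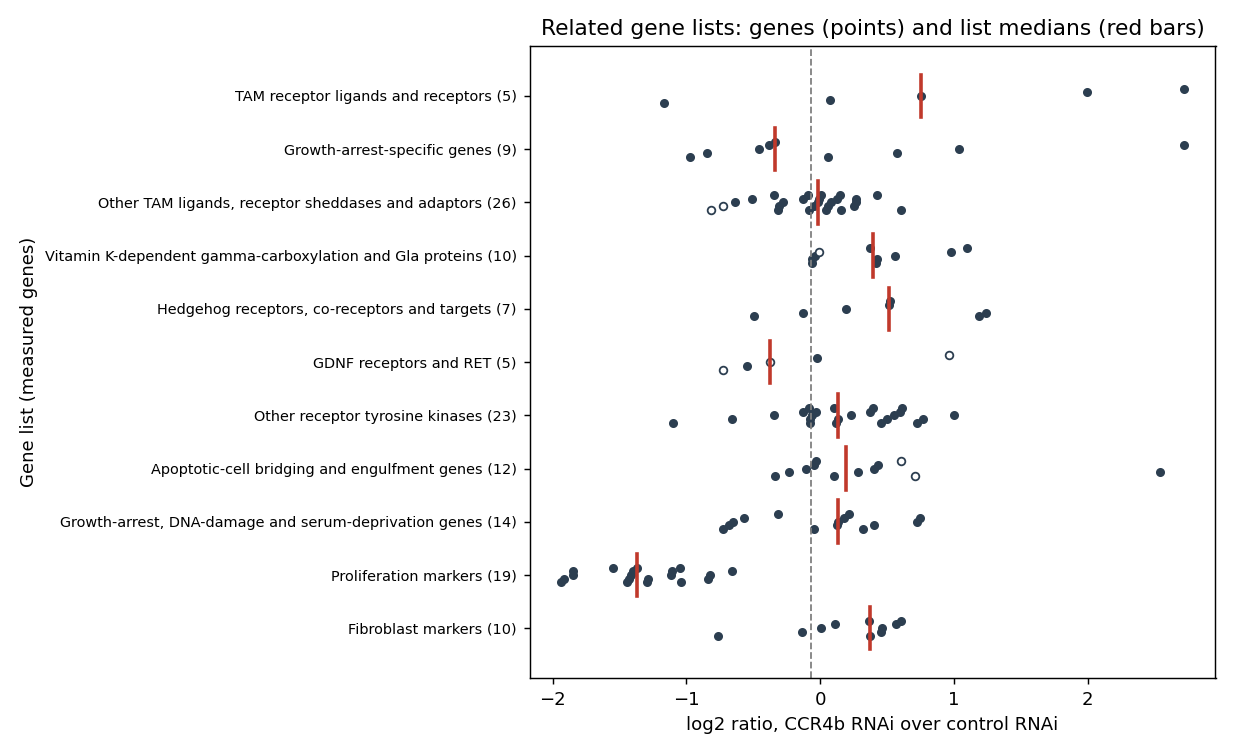
Log2 ratio of CCR4b RNAi over control RNAi for the measured genes of each list (points, open where the ratio is a bound), with list medians as red bars and the median of all measured genes as a dashed line. The TAM ligands and receptors spread from -1.16 to 2.72, the further TAM adaptors centre on -0.02, and all 19 proliferation markers lie below 0.

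Proliferation and cell identity were read in the same arrays. All 19 measured proliferation markers were at least 1.5-fold lower after CCR4b RNAi (background 14.6%), with a median log2 ratio of -1.37 and a summed signal of 3062 units after CCR4b RNAi against 6980.3 units in the control. The part of this difference in the Gas6, Axl, Mertk and Gas2 values was not tested. All 10 fibroblast markers were above the floor on both arrays, with a median log2 ratio of 0.37. Col1a1, a collagen chain, was 1.52-fold higher and Thy1, a surface marker of fibroblasts, was 1.70-fold lower, the only ones of the 10 past 1.5-fold on their brightest probe sets. Of 11 macrophage markers, a cell type known for Mertk, 5 were below the floor on both arrays (Ptprc, Itgam, Tyrobp, Fcer1g and Cd53). The summed signal of the 11 was 137 units after CCR4b RNAi and 115 units in the control, with Lyz2 at least 2.83-fold higher, Cd14 1.79-fold higher and Cd68 2.55-fold lower. Of 8 endothelial markers 7, and of 6 epithelial markers 4, were below the floor on both arrays, as were 3 of 5 adipocyte and 4 of 6 muscle markers. Among the others of these 4 lists, those past 1.5-fold were Epcam, an epithelial adhesion molecule (29.5 units after CCR4b RNAi and 19.4 in the control, on a probe set open to cross-hybridisation), and Ckm, muscle creatine kinase (10.4 units after CCR4b RNAi and 16.2 in the control). In bulk RNA, fewer cells that express a gene and less RNA per cell cannot be told apart.

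Genes with the most similar pair of signals were found by distance in the plane of the 2 log2 signals. Over 2 arrays such likeness means only a similar level and ratio. For Gas6 the nearest were Reep3 (distance 0.57), Postn, which encodes the matrix protein periostin (0.58), and Steap4, a metalloreductase (0.64), so none lay close. Reep3 read 281 units after CCR4b RNAi and 67.3 in the control. For Axl the nearest were Slbp, the stem-loop binding protein of histone mRNAs (0.06), Gja1, the gap junction protein connexin 43 (0.10), and Sqle, an enzyme of cholesterol synthesis (0.12). Slbp read 176 units after CCR4b RNAi and 375 in the control. For Gas2 they were Klf13 (0.06), Tmem86a (0.07) and Tfap2a (0.08), with ratios between 2.01-fold and 2.16-fold higher.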

How the data were processed

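Total RNA was taken from 1 CCR4b RNAi and 1 control RNAi culture and grouped by the knockdown label. Intensity values per probe set were made by the authors in GCOS with a global normalization, per the labels' design text. No source used here gives the GCOS version, the normalization target or detection calls. The deposited intensity values were used without further scaling, raised to a floor of 8.07 units (the 50th percentile) and turned into log2 ratios. The number of arrays, 1 in each group, limits the precision and allows no p-value. The platform annotation gave 1 symbol to 34958 probe sets, several to 932 and none here to 9211. Of the first, 34754 matched a RefSeq gene of GRCm38.p6, and promoter windows come from the same release, with all 7 members matched. Signal classes are 10 equal groups of measured genes by mean log2 signal, and the robust SD of a class is the median absolute deviation of its log2 ratios, scaled to match an SD.

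Named genes were all members, the genes of short lists, and up to 3 per direction and list past 1.5-fold. Some genes of longer lists that did not pass 1.5-fold, such as Adam10, Mfge8 and Pdgfra, were named outside this rule. The 3 nearest genes for Gas6, Axl and Gas2, the deadenylase genes Cnot6l and Cnot6, and the control genes were also named. The members and lists were chosen with earlier results of these data known. The ratio and call steps were tested on simulated data with known changes, put only into genes with signals well above the floor. Mertk, Tyro3, Gas2 and Pros1 are dimmer than those genes. Changes as small as 1.5-fold or 2-fold were not simulated, so that test does not cover calls near these limits. Alternatives were division by the array median, quantile normalization, loess with a span of 0.3, a floor at the 25th or at the 75th percentile, log2 of signal plus 1 without a floor, the median over probe sets, and leaving out _x_at and _s_at probe sets. Python 3.11.15, pandas 2.3.3 and statsmodels 0.14.6 were used.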

Additional observations from a re-analysis of the deposited data

How the results depend on the processing

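Across 8 alternatives the log2 ratio stayed on its side of 0 for Gas6 (1.59 to 2.87), Pros1 (0.66 to 0.87), Axl (-1.26 to -0.99) and Gas2 (0.94 to 1.14), and across 7 for Mertk (1.88 to 2.00). Mertk and Tyro3 have no value with the floor at the 75th percentile. Gas6 had 1.59 with the median over its probe sets. The dim Gas6 probe set had 0.47 as a bound. It had 0.90 as the plain ratio of its unfloored signals, which was not among the 8 alternatives. Tyro3 ranged from -0.51 (median over probe sets) to 0.07, and Gas1 from -0.03 to 0.22. Axl was 1.98-fold lower with loess, with a log2 ratio of -0.99 under quantile normalization too, and Gas2 was 1.92-fold higher with division by the array median, so these passed just inside 2-fold.

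Counts over all genes moved with the floor. At 1.5-fold, 3222 genes were higher and 3516 lower with the floor at the 25th percentile, and 472 higher and 1025 lower with it at the 75th, against 1352 and 1744 as reported. At 2-fold, 1787 were higher and 1791 lower at the 25th and 126 and 265 at the 75th, against 446 and 534 as reported. With log2 of signal plus 1 in place of floored signals they were 901 and 924. That count kept the same measured genes, so genes below the floor on both arrays stayed out. With each array divided by its median, 32.4% of the genes past 1.5-fold were higher (1083 against 2259 lower), against 43.7% as reported. No paired analysis was possible because each group holds 1 array. Signals near the floor limit Mertk and Tyro3, and no replicate limits the rest.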

Other observations

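GAS6 and MERTK take part in the bridging and uptake of apoptotic cells. Of 12 further measured genes of this process, 3 passed 1.5-fold upward (11.3% of all measured genes), 2 of them as bounds, and 0 downward (14.6%). The median log2 ratio was 0.19, against -0.07 over all measured genes, and fell to 0.04 with the floor at the 75th percentile. Abca1, a cholesterol efflux transporter, read 129 units after CCR4b RNAi and 22.2 in the control (5.82-fold higher), with 2.49-fold and 1.02-fold on its dimmer probe sets. Stab2 and Adgrb1, receptors for phosphatidylserine, did not reach the floor in the control and were at least 1.63-fold and 1.52-fold higher. Mfge8, which bridges phosphatidylserine to integrins as GAS6 bridges it to TAM receptors, read 279 units after CCR4b RNAi and 288 in the control. Itgav and Itgb5, subunits of the integrin that binds MFGE8, had log2 ratios of 0.40 and 0.28. Lrp1, an uptake receptor, had 0.11, and Calr, which encodes calreticulin, had -0.34.

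Genes of growth arrest, DNA damage and serum deprivation outside the Gas series went both ways. Of 14 measured, 2 passed 1.5-fold upward (11.3% of all measured genes) and 3 downward (14.6%), so both shares were near the background. The median log2 ratio was 0.13 and ranged from 0.04 to 0.19 among the alternatives. Foxo3, a transcription factor of quiescence and stress, read 351 units after CCR4b RNAi and 210 in the control (1.67-fold higher), with 1.75-fold on its second probe set. Txnip, a thioredoxin inhibitor, was 1.65-fold higher on its brighter probe set and 1.66-fold on the other. Ddit3, which encodes CHOP, was 1.65-fold lower but on a dimmer probe set its log2 ratio was 0.29. Cavin3, first found as a serum-deprivation response relative, was 1.60-fold lower and Ppp1r15a, also named GADD34, was 1.57-fold lower. Gadd45a and Gadd45b had log2 ratios of 0.32 and -0.57. The GDNF receptor relatives of Gas1 were dim: Gfra2 read 28.2 units after CCR4b RNAi and 41.3 in the control on its brightest probe set. Dimmer Gfra2 probe sets went the other way, at 1.17-fold higher and at least 1.40-fold higher. Gfra3 was at least 1.95-fold higher and Gfra4 at least 1.65-fold lower, each below the floor on the other array, and Ret read 9.09 units after CCR4b RNAi and 9.24 in the control.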
